A study of Homo sapiens with 8 samples.

Results

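The 10 genes described here encode the receptor TREM2, its relative TREM1, the adaptors TYROBP (also called DAP12) and HCST (DAP10), and 6 enzymes that act on the signal these receptors send: SYK, BTK, PLCG2, VAV1, INPP5D (SHIP1) and PTPN6 (SHP-1). They were taken by symbol from a table of 78899 genes, each symbol matched 1 gene with counts, and all 10 passed the filter on low counts. The libraries were bulk RNA-seq of GFP-positive human microglia derived from the H1 embryonic stem cell line and sorted by flow cytometry, although other labels of the same samples call the cells iPSC-derived. In the mono-culture group (n = 4) the microglia grew alone with added IL-34 at 100 ng/mL and M-CSF at 10 ng/mL, which are ligands of the receptor CSF1R. In the tri-culture group (n = 4) no cytokine was added and the microglia shared the dish with other cells, which the labels do not name. Both groups were collected 2 weeks after plating, and each of 4 batches gave 1 library of each group, so an effect of the co-cultured cells cannot be told apart from one of the missing cytokines.

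TREM2 and TREM1 have short intracellular tails and depend on an adaptor in the membrane to signal. TYROBP carries an immunoreceptor tyrosine-based activation motif (ITAM), which Src family kinases phosphorylate so that the kinase SYK can dock, while HCST carries a motif that recruits phosphoinositide 3-kinase (PI3K) instead. SYK and BTK then act on PLCG2, which releases calcium and activates protein kinase C, and on VAV1, which switches on small GTPases of the cytoskeleton. INPP5D removes a phosphate from the lipid that PI3K makes, and PTPN6 removes phosphates from the kinases and adaptors, so both restrain the pathway. In microglia the TREM2 pathway is known for lipid sensing, phagocytosis and survival, and variants of TREM2, PLCG2 and INPP5D are associated with the risk of Alzheimer's disease.

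The sequences before the annotated starts of 5 of these genes are shown because they cover the receptors and adaptors, which behaved differently in the comparison, and BTK, the member with 2 copies of the longer motif searched. They come from RefSeq promoters on GRCh38.p14 and are written 5′ to 3′ on the strand of the gene, up to 250 bases before the start and without bases that GENCODE 29 places in an exon. Capitals mark GAGGAA, a short sequence bound by the microglial factor PU.1 (gene SPI1) and other ETS factors, and its longer form GAGGAAGT, on either strand (TTCCTC and ACTTCCTC on the strand written).
TREM2 chr6:41163187-41163366 minus strand: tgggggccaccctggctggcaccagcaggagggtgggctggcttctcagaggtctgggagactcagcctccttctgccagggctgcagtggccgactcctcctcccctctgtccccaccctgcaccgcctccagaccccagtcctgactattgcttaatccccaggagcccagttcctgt
TREM1 chr6:41286720-41286932 minus strand: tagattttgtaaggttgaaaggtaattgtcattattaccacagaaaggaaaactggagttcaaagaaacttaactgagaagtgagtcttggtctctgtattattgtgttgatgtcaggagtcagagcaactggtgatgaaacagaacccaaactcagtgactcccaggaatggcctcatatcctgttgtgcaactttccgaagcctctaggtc
TYROBP chr19:35908296-35908545 minus strand: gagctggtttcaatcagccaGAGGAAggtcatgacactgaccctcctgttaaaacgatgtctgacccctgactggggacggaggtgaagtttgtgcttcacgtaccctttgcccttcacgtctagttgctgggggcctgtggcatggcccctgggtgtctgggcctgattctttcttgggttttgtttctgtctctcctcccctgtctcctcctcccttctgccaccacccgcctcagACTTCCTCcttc
HCST chr19:35902279-35902479 plus strand: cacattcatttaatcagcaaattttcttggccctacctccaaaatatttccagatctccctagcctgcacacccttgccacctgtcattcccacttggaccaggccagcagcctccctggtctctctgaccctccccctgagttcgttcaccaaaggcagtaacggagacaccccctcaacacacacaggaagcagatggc
BTK chrX:101390797-101391046 minus strand: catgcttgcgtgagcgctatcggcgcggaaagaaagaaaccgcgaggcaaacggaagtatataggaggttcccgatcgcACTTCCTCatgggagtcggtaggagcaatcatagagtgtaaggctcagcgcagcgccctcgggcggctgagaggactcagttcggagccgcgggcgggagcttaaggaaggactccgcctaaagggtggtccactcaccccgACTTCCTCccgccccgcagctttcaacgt
The longer form GAGGAAGT was found in 5 of the 14 RefSeq promoters of the 10 members, those of INPP5D, SYK, VAV1, TYROBP and BTK, and in 2.17% (761) of the 35116 promoters searched at the same length. GAGGAA, which every GAGGAAGT contains, was found in 6 of the 14, from the same 5 genes, and in 23.6% of all promoters. The RefSeq window of INPP5D lies inside the gene as GENCODE 29 places it, and that of SYK spans its GENCODE start. No match lay in the windows of TREM2, TREM1, HCST, PTPN6 and PLCG2, which says only that these letters are not there. SPI1 itself averaged 485 ± 49.6 CPM (SD, n = 4) among the mono-cultures and 486 ± 50.9 CPM (SD, n = 4) among the tri-cultures, where CPM is read counts per 1e6 after TMM scaling, a correction for library size and composition.

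Depth in units of 1e6 counted reads was 17.04 to 33.4 for the mono-cultures and 17.6 to 24.5 for the tri-cultures. Of the 10 microglia and macrophage markers examined, 3 were higher and 1 lower in tri-culture and 6 did not pass. Their levels summed to 3303 to 3970 CPM in the mono-culture libraries and 4123 to 5637 CPM in the tri-culture libraries. CX3CR1 alone averaged 120 and 833 CPM in the 2 groups, so the higher sum does not mean that all these markers rose. Genes listed as markers of other cells were also counted: summed levels of 13 astrocyte and progenitor genes were 1138 to 1496 CPM and 1220 to 1420 CPM, with GFAP at 0.296 and 167 CPM on average. Of those 13, 9 were higher (8 with batch as a block, where SOX9 had an adjusted p of 0.101) and 2 lower in tri-culture, and AQP4, SOX2, PTPRZ1 and ALDH1L1 had no count in any mono-culture library. The mono-culture sum thus came almost entirely from other genes of the list. AQP4, SOX2, PTPRZ1 and ALDH1L1 entered the test through their tri-culture levels. So did GFAP, whose mono-culture mean was below the 0.464 CPM used as the filter. The counts of called genes and the list median were taken over a list that includes these genes. The median log2 fold change of the 13 (tri-culture minus mono-culture) was 1.53, so near-equal sums do not mean equal levels of the single markers. The 16 lymphocyte markers summed to 21.0 to 37.1 CPM and 8.73 to 21.2 CPM, in the same order of groups, with TRBC1, TRBC2, GNLY and CD79B at 0 throughout. Only 2 of the 16, NCAM1 among them, passed the filter on low counts, and neither was called. The lymphocyte sums thus do not speak for the whole list. The 6 mast cell markers summed to 1.54 to 3.06 and 2.86 to 4.36 CPM. The 10 mesenchymal and endothelial markers summed to 268 to 357 and 563 to 883 CPM. Of these PECAM1, which is also among the inhibitory receptors counted below, gave 271 and 488 CPM on average. PECAM1 was the only one of them called higher, and COL3A1 was called higher with batch as a block (edgeR adjusted p = 2.63e-05). The 10 neuronal markers summed to 14.96 to 23.2 and 13.3 to 35.01 CPM (of which MAP2 gave 15.3 and 12.2 CPM on average). Of the neuronal markers 5 were tested, and GAP43, NEFL and STMN2 were called higher, at 0, 0.0171 and 0 CPM on average in the mono-cultures and 6.59, 2.92 and 1.92 CPM in the tri-cultures. GAP43, NEFL and STMN2 thus entered the test through their tri-culture levels. The 4 pluripotency markers stayed at or below 0.360 CPM in every library. In bulk libraries such as these, fewer cells of a type and less RNA per cell cannot be told apart.

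Of the 10 genes, 3 were higher in tri-culture (TREM1, TREM2 and SYK), 2 were lower (HCST and VAV1), and TYROBP, PLCG2, INPP5D, PTPN6 and BTK did not pass the test. The threshold was a Benjamini-Hochberg adjusted p under 0.05 over 16249 tested genes in edgeR's quasi-likelihood test, which called 26.9% of all tested genes, 13.9% higher and 13.0% lower. The CPM ranges of the groups did not overlap for the same 5 called members, against 29.4% of all tested genes. The median log2 fold change (tri-culture minus mono-culture) of the 10 genes was 0.15 and that of all tested genes 0.02.

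**Figure D1:**
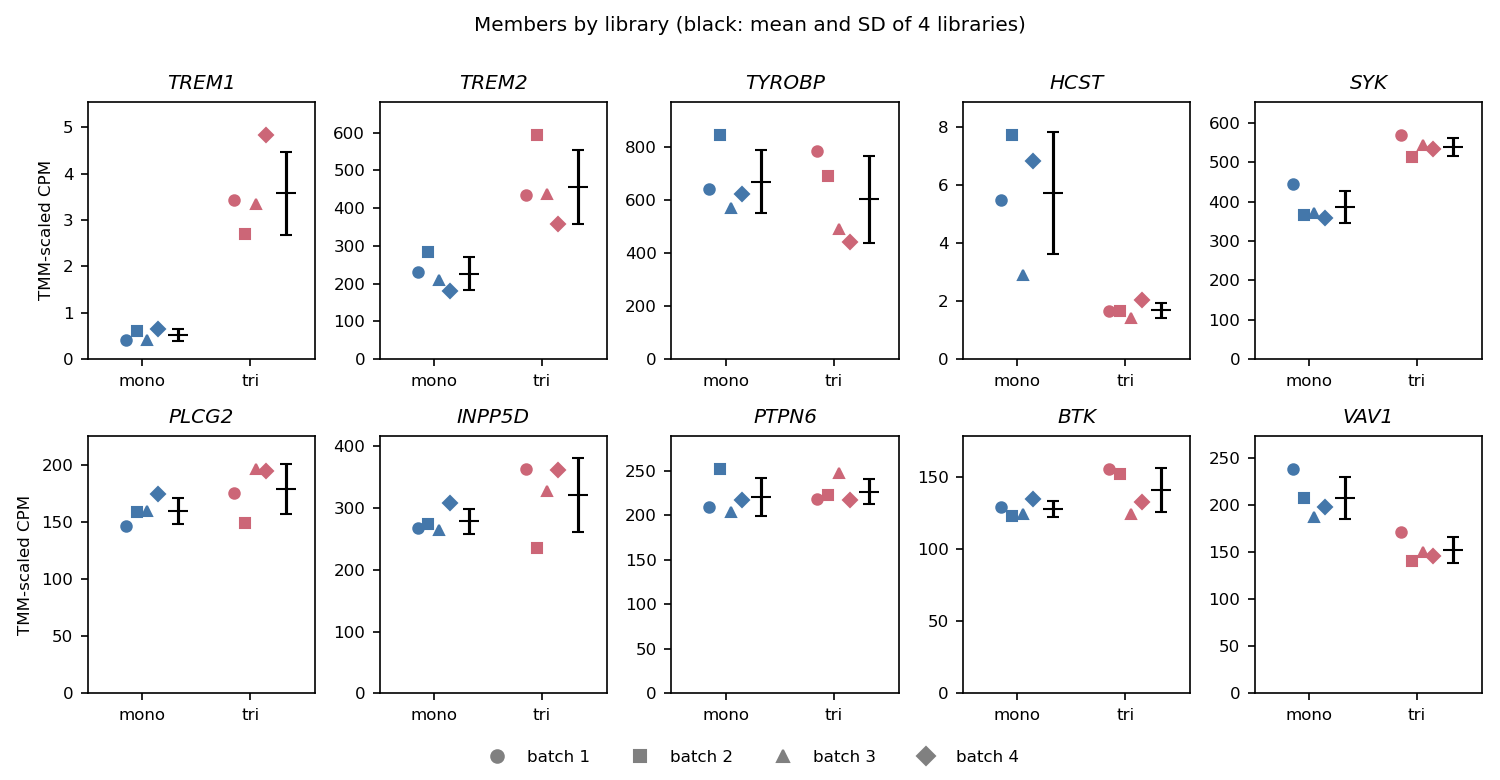
TMM-scaled CPM of each of the 10 genes (linear axis from 0) in the 4 mono-culture and 4 tri-culture libraries, with a symbol for each batch and the mean and SD of each group in black. The groups lie apart for TREM1, TREM2, HCST, SYK and VAV1, and the TYROBP points of the groups mix.

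TREM2, the receptor for lipids and lipoproteins, was the more abundant receptor and rose in tri-culture. It was at 231, 284, 210 and 180 CPM in mono-culture libraries 1 to 4 and at 436, 593, 438 and 359 CPM in tri-culture libraries 1 to 4. Library 2 was the highest and library 4 the lowest in both groups, and the groups did not overlap. The group means were 227 ± 43.6 and 457 ± 98.5 CPM (SD, n = 4 each), a 2.02-fold increase at a log2 change of 1.01 ± 0.17 (SE, edgeR adjusted p = 0.000673). Within batches 1 to 4 the log2 difference was 0.92, 1.06, 1.06 and 0.99. The gene (ENSG00000095970) lies at chr6:41158506-41163186 on the minus strand of GRCh38.

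TREM1, a receptor best known on neutrophils and monocytes, was near the detection limit in mono-culture and low in tri-culture. It was at 0.411, 0.611, 0.418 and 0.660 CPM in mono-culture and at 3.44, 2.69, 3.36 and 4.83 CPM in tri-culture. These are 48 counted reads over the 4 mono-culture libraries and 308 over the 4 tri-culture libraries, and no tri-culture library overlapped the mono-culture range. The means of 0.525 ± 0.129 and 3.58 ± 0.899 CPM (SD, n = 4 each) gave a 6.93-fold increase, and a log2 change of 2.79 ± 0.32 (SE, 95% interval 2.09 to 3.50, adjusted p = 3.50e-05). Only 2 of the 4 mono-culture libraries reached the 0.464 CPM used as the filter, so TREM1 entered the test through its tri-culture level. The gene (ENSG00000124731) lies at chr6:41267926-41286719, on the minus strand and in the same cluster as TREM2.

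Most, but not all, of the tested monocyte and dendritic cell markers were called higher, as TREM1 was. Of 7 monocyte markers 6 were tested, of which CCR2, LYZ, VCAN, S100A8 and S100A9 were higher and CD14 was lower, and the list summed to 188 to 215 CPM across mono-culture libraries and to 220 to 472 CPM across tri-culture libraries. Of 12 dendritic cell markers 9 were tested, with 5 higher, 1 lower and 3 not passed, and sums of 75.8 to 97.6 and 341 to 488 CPM. The 11 neutrophil markers summed to 4.42 to 4.92 CPM and 17.1 to 27.2 CPM, mostly CSF3R and CXCR2, both called higher (CXCR2 not with batch as a block, adjusted p = 0.0581), while MPO and LTF had no count in any library. The part of these cell types in the TREM1 difference was not tested.

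The rest of the TREM cluster on chromosome 6 was expressed at far lower levels than TREM2. TREML1, which is known from platelets, had 779 and 920 reads over the groups, at 7.80 ± 1.18 and 10.7 ± 4.17 CPM (SD, n = 4 each, adjusted p = 0.231). TREML4 had 22 and 101 reads and was higher in tri-culture (log2 fold change 2.38, adjusted p = 0.00921), and like TREM1 it entered the test through its tri-culture level, since 3 of the 4 mono-culture libraries were at 0.111 to 0.120 CPM. TREML2 had 73 and 191 reads and was also higher (1.47, adjusted p = 0.0272), but it missed the threshold if library 1, 3 or 4 of the mono-cultures (adjusted p = 0.0573, 0.0761 and 0.0813) or library 1 or 2 of the tri-cultures (0.0808 and 0.0608) was left out. Its lowest mono-culture library, at 0.420 CPM, was below the 0.464 CPM used as the filter, so TREML2 too entered the test through its tri-culture level. NCR2, which also pairs with TYROBP, and the pseudogene TREML3P had no read in any library.

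TYROBP, the adaptor that carries the ITAM, did not pass the test. It was at 642, 844, 569 and 622 CPM in mono-culture and at 783, 692, 490 and 441 CPM in tri-culture. The groups overlapped, with tri-culture higher in batch 1 and lower in batches 2, 3 and 4. The means were 669 ± 120.3 and 602 ± 163 CPM (SD, n = 4 each), and the log2 fold change of −0.15 ± 0.19 (SE, adjusted p = 0.618) had a 95% interval from −0.57 to 0.26. In a fit of batches 3 and 4 alone the gene was called lower (−0.35, adjusted p = 0.0269), whereas batches 1 and 2 alone gave −0.02 (adjusted p = 0.954). The gene (ENSG00000011600) lies at chr19:35904401-35908295 on the minus strand.

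HCST, the adaptor that recruits PI3K, fell. It was at 5.48, 7.71, 2.89 and 6.84 CPM in mono-culture and at 1.65, 1.67, 1.41 and 2.03 CPM in tri-culture. Mono-culture library 3 was the lowest of its group but still above every tri-culture library. The means of 5.73 ± 2.104 and 1.69 ± 0.255 CPM (SD, n = 4 each) correspond to a 3.37-fold lower level and a log2 change of −1.75 ± 0.31 (SE, adjusted p = 0.000834), on 510 and 147 reads. HCST (ENSG00000126264) lies at chr19:35902480-35904377 on the plus strand and ends 23 bases before the end of TYROBP, which runs the opposite way. Of its 613 exon bases, 307 (50.1%) lie under AD000864.1, an antisense gene with 43 and 18 reads. Whether the authors counted by strand is not given in the sources used here, so reads of the antisense gene and HCST cannot be told apart there. HCST is also known from T and NK cells. Of the lymphocyte markers, whose sums are given above, only 2 passed the filter and neither was called. With batch as a block the NK cell marker NCAM1 was lower (adjusted p = 0.00540), and the part of such cells in the HCST difference was not tested.

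The balance of receptors and adaptors was compared per length, as the log2 ratio of 2 genes in the same library, each taken as its reads plus 0.5 per kilobase of its GENCODE 29 exons. TREM2 was 0.240 to 0.306 of TYROBP in the mono-culture libraries and 0.461 to 0.740 of TYROBP in the tri-culture libraries, a log2 difference of 1.18 in the ratio. HCST was 0.00756 to 0.0163 of TYROBP in mono-culture and 0.00317 to 0.00688 in tri-culture, a log2 difference of −1.49. TREM2 exceeded TREM1 by 1034 to 2138 times in mono-culture and by 292 to 865 times in tri-culture, a log2 difference of 1.71 in TREM1 over TREM2. None of these 3 ratios overlapped between the groups. Each reached p = 0.0286 in a two-sided exact permutation test, the smallest that 4 against 4 allows, or 0.0357 after Benjamini-Hochberg adjustment over the 5 ratios tested. With libraries paired by batch, flipping signs within batches gave p = 0.125 (exact permutation) for each, the smallest that 4 batches allow.

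**Figure D2:**
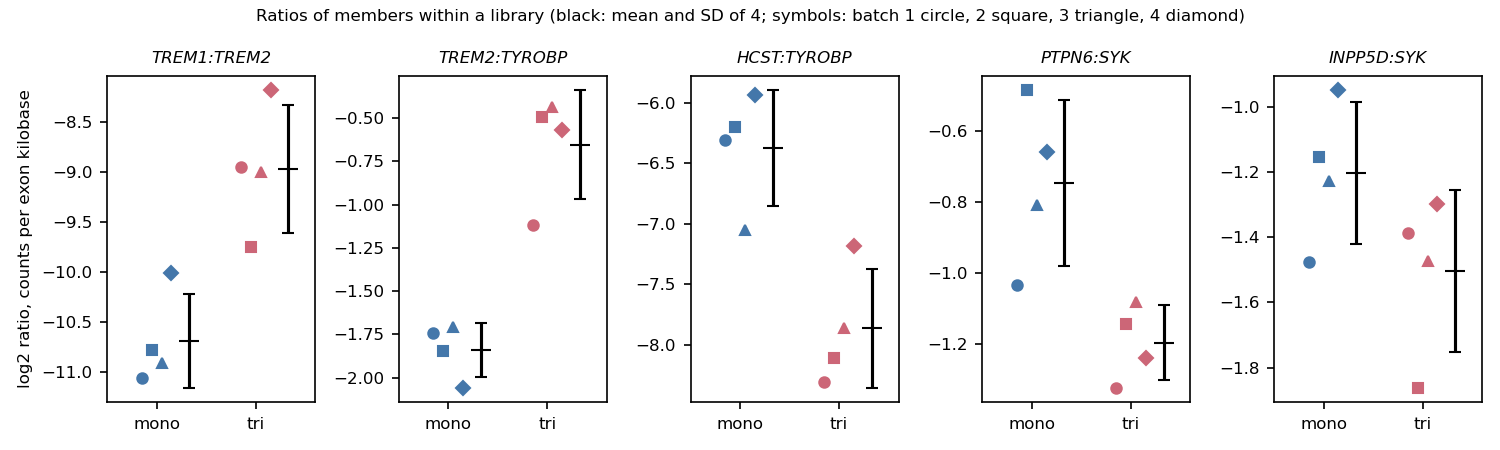
Log2 ratio of reads per exon kilobase for 5 gene pairs in each mono-culture and tri-culture library, with a symbol for each batch and the group mean and SD in black. The groups separate for TREM1:TREM2, TREM2:TYROBP, HCST:TYROBP and PTPN6:SYK, and overlap for INPP5D:SYK.

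Among the kinases, SYK, which binds the phosphorylated ITAM, rose. It was at 446, 367, 372 and 358 CPM in mono-culture and at 569, 513, 544 and 533 CPM in tri-culture. Mono-culture library 1 stood above the other 3 but below every tri-culture library. The means were 385 ± 40.6 and 539.6 ± 23.1 CPM (SD, n = 4 each), a 1.40-fold increase and a log2 change of 0.49 ± 0.12 (SE, adjusted p = 0.00682). In batches 1 and 2 alone it was 0.40 with an adjusted p of 0.104. SYK (ENSG00000165025) lies at chr9:90801787-90898549 on the plus strand.

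VAV1, the exchange factor for Rac GTPases, moved the other way. It was at 237, 207, 187 and 197 CPM in mono-culture and at 172, 140.3, 150 and 146 CPM in tri-culture. Every mono-culture library was above every tri-culture library. The means of 207 ± 21.8 and 152 ± 13.7 CPM (SD, n = 4 each) differed by a log2 change of −0.45 ± 0.11 (SE, adjusted p = 0.00958), or 1.36-fold lower. VAV1 (ENSG00000141968) lies at chr19:6772714-6857366 on the plus strand.

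BTK and PLCG2, which lie between SYK and the calcium signal, did not pass the test. BTK, a Tec family kinase, was at 129, 123, 124 and 134 CPM in mono-culture and at 155, 152, 124 and 132 CPM in tri-culture. The tri-culture libraries of batches 1 and 2 were above all mono-culture libraries and those of batches 3 and 4 were not, and the log2 fold change was 0.14 ± 0.11 (SE, adjusted p = 0.369, 95% interval −0.09 to 0.37). PLCG2, the phospholipase, was at 146, 158, 159 and 174 CPM in mono-culture and at 175, 149, 196 and 194 CPM in tri-culture. Its tri-culture library 2 fell inside the mono-culture range and the other 3 lay above it, and the log2 fold change was 0.16 ± 0.12 (SE, adjusted p = 0.348, 95% interval −0.09 to 0.41). The genes (ENSG00000010671 and ENSG00000197943) lie at chrX:101349447-101390796 on the minus strand and chr16:81739097-81962693 on the plus strand.

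Neither inhibitor passed the test. INPP5D, the lipid phosphatase SHIP1, was at 267, 275, 264 and 308 CPM in mono-culture and at 362, 235, 327 and 361 CPM in tri-culture. Tri-culture library 2 was the lowest of all 8 and the other 3 tri-culture libraries were the highest, and the log2 fold change was 0.21 ± 0.14 (SE, adjusted p = 0.327, 95% interval −0.10 to 0.51). PTPN6, the phosphatase SHP-1, was at 209, 252, 204 and 218 CPM in mono-culture and at 218, 223, 247 and 217 CPM in tri-culture. The tri-culture values lay within the mono-culture range, and the log2 fold change was 0.04 ± 0.11 (SE, adjusted p = 0.843, 95% interval −0.20 to 0.27). The genes (ENSG00000168918 and ENSG00000111679) lie at chr2:233059967-233207903 and chr12:6946468-6961316, both on the plus strand.

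Relative to the kinase SYK, per length, PTPN6 was at 0.488 to 0.714 in mono-culture and 0.400 to 0.473 in tri-culture, a log2 difference of −0.45 in the ratio (exact permutation p = 0.0286, adjusted 0.0357). INPP5D was at 0.359 to 0.517 of SYK in mono-culture and 0.275 to 0.407 in tri-culture, and these ranges overlapped (log2 difference −0.30, exact permutation p = 0.143, adjusted 0.143). With sign flips within batches the exact permutation p was 0.125 for PTPN6, the smallest possible, and 0.250 for INPP5D.

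**Figure D3:**
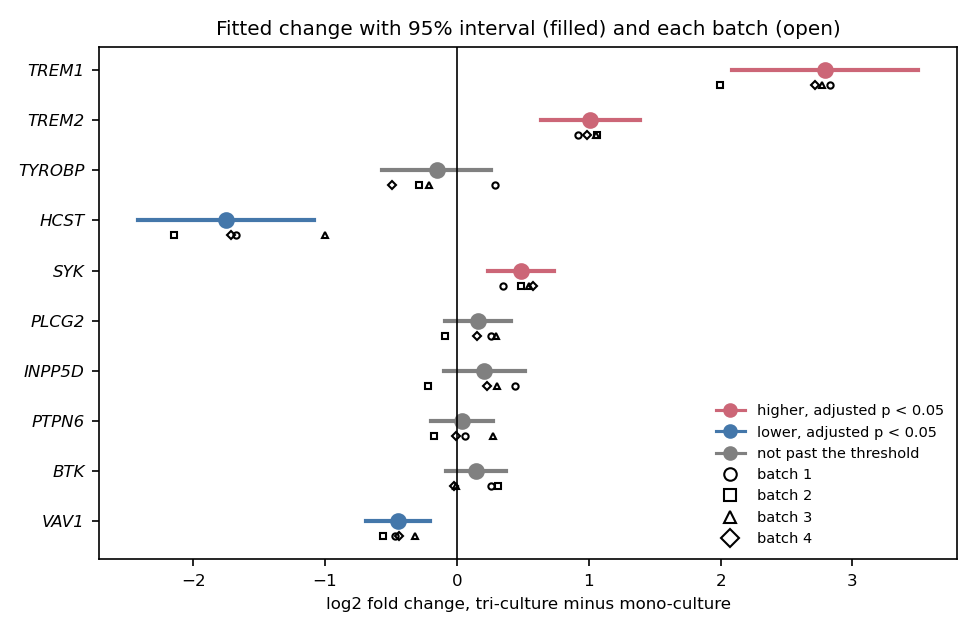
Log2 fold change (tri-culture minus mono-culture, edgeR) of the 10 genes with 95% intervals (red called higher, blue called lower, grey the rest) and the difference within each batch as open symbols. The intervals of TREM1, TREM2 and SYK lie above 0, those of HCST and VAV1 below 0, and the other 5 cross 0.

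On the authors' deposited TPM-like scale, which accounts for gene length, TYROBP was the most abundant of the 10 in both groups, at a mean deposited value of 2196 in mono-culture and 1991 in tri-culture. TREM2 was the second at 729 and 1484, and its range lay apart from that of TYROBP in mono-culture but overlapped it in tri-culture. SYK was the third at 238 and 335, and its range overlapped neither neighbour in either group. VAV1 was the fourth in mono-culture, at 172, with a range that overlapped that of PTPN6 (155), and the sixth in tri-culture, at 127, where PTPN6 was at 160. INPP5D was at 115 and 134, between PTPN6 and BTK in mono-culture and with a range that overlapped that of VAV1 in tri-culture. BTK was at 58.2 and 64.6 and PLCG2 at 25.9 and 29.2. HCST was at 21.3, within the range of PLCG2 in some mono-culture libraries, and at 6.32, below PLCG2 in all tri-culture libraries. TREM1 was the lowest at 0.280 and 1.92.

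**Figure D4:**
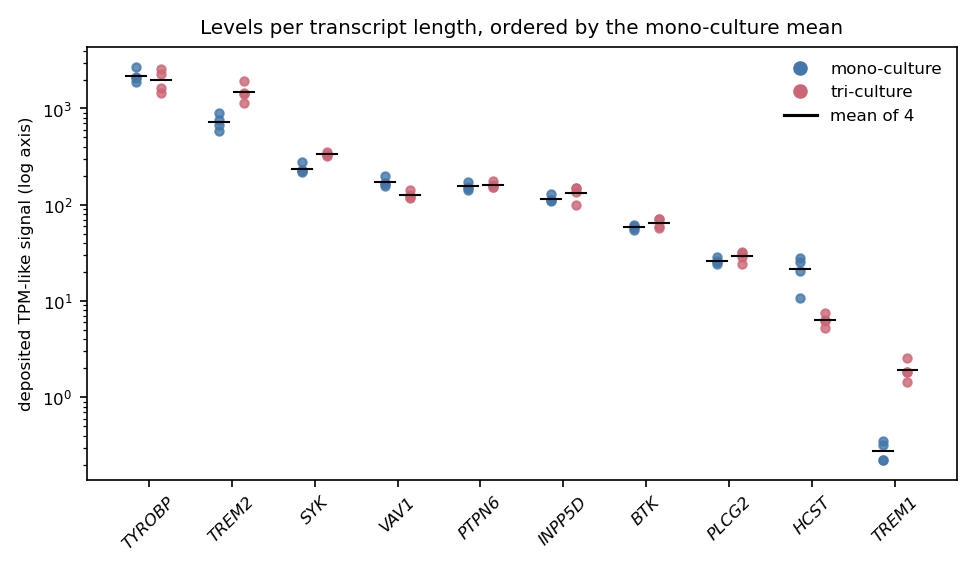
Deposited TPM-like value (log axis) of the 10 genes in each library, with a line at the mean of 4 and the genes ordered by their mono-culture mean. TYROBP and TREM2 lie at the top and TREM1 at the bottom in both groups, and VAV1 changes place with PTPN6 and INPP5D.

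The receptors that pair with TYROBP or HCST were compared on the same deposited scale, as shares of the summed signal of 9 such receptors, a set chosen after their values were seen. The set was TREM1, TREM2, SIRPB1, CLEC5A, CD300LB, SIGLEC14, SIGLEC15, SIGLEC16 and PILRB. PLXNA1 and the activating receptor CD300E, both given below and both lower in tri-culture, were left out of it, so the shares hold for this set only. Their sum averaged 846 ± 133 in mono-culture and 1681 ± 306 in tri-culture (SD, n = 4 each). TREM2 made up 84.0 to 88.8% of it in mono-culture and 84.8 to 92.7% in tri-culture. CLEC5A, a C-type lectin receptor, made up 1.24 to 3.51% and 3.83 to 7.48%, and SIGLEC16 made up 1.27 to 2.28% and 0.0859 to 0.226%. SIGLEC14 made up 5.39 to 7.38% and 2.24 to 5.85%. TREM1 made up 0.0254 to 0.0509% and 0.0697 to 0.189%, so it stayed a minor part of the receptor sum.

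Genes of the pathway outside the 10 were counted over lists of 160 genes in all, of which 140 were tested. Of these 30 were higher and 39 lower in tri-culture and 71 did not pass, with a median log2 fold change of −0.04. That is 69 of 140 called, beside 26.9% of all tested genes. The lists were chosen with earlier results of these data known, so no conclusion about the pathway is drawn from this excess. Counts in the single lists below stand beside 13.9% of all tested genes called higher and 13.0% called lower. Of the 69, 37 kept their call in all 18 alternative analyses, CEACAM1 kept it in the 17 that tested it, and none changed sign. Scaling by library size only called 34 higher and 28 lower, and upper quartile factors 33 and 30, so which direction was the more frequent depended on the scaling.

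Among receptors listed as pairing with DAP12 or DAP10, 8 of 12 were tested and 1 was higher and 4 were lower (median log2 fold change −0.25). CLEC5A rose from 24.6 ± 9.21 to 133 ± 22.2 CPM (SD, n = 4 each, log2 fold change 2.43, adjusted p = 9.02e-06). PLXNA1, a semaphorin receptor, fell from 77.7 to 22.4 CPM (−1.79, adjusted p = 2.07e-06) and SIGLEC16 from 14.2 to 2.71 CPM (−2.38, adjusted p = 4.83e-06). SIRPB1 and SIGLEC15 were also lower (−0.52 and −0.81). TREM2 and TREM1 thus rose while most called receptors of this list fell. SIGLEC16 has a near-identical relative in SIGLEC11, which fell too (−3.02), and reads of the pair could be split by the counting.

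Of the TREM cluster and TREM-like genes, 10 of 11 were tested, with 5 higher and 2 lower (median 0.46). CD300LF, an inhibitory receptor of the CD300 family, rose from 0.955 ± 0.609 to 27.0 ± 4.97 CPM (SD, n = 4 each, log2 fold change 4.70, adjusted p = 7.27e-07). Its lowest mono-culture library, at 0.240 CPM, was below the 0.464 CPM used as the filter, so it entered the test through its tri-culture level. CD300E, an activating member of that family, fell from 97.6 ± 31.9 to 18.6 ± 4.00 CPM (−2.39, adjusted p = 1.02e-05). PILRA was higher (0.53, adjusted p = 0.0101). CD300A was higher (0.47) and CD300C lower (−0.67). CD300A missed the threshold if library 1 or 3 of the mono-cultures was left out (adjusted p = 0.0974 and 0.0797) or library 1 of the tri-cultures (0.0961). CD300C missed it if library 2 or 4 of the mono-cultures (0.0565 and 0.0684) or library 2 or 3 of the tri-cultures (0.0520 and 0.0508) was left out.

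Of 9 genes for ligands of TREM2 or TREM1, 7 were tested, 5 were higher and none lower (median 0.67). Of all tested genes 13.9% were called higher, and this list too was chosen with earlier results of these data known. CLU, which encodes clusterin, rose from 0.434 ± 0.168 to 54.1 ± 32.6 CPM (SD, n = 4 each, log2 fold change 6.92, adjusted p = 1.24e-06), and in tri-culture it ranged from 17.8 to 92.8 CPM. Its mono-culture mean was below the 0.464 CPM used as the filter, so CLU entered the test through its tri-culture level. Clusterin is made by astrocytes, whose markers moved as given above, with GFAP at 0.296 and 167 CPM. The part of astrocyte RNA in the differences of CLU and of the other ligand genes, APOE among them, was not tested. LGALS3, encoding galectin-3, was higher (0.78, adjusted p = 0.0135). C1QB (0.67), C1QC (0.39) and APOE (0.88), for complement chains and apolipoprotein E, passed with adjusted p of 0.0259, 0.0464 and 0.0485. C1QB missed the threshold if library 3 or 4 of the mono-cultures (adjusted p = 0.0792 and 0.0959) or library 1 or 2 of the tri-cultures (0.0728 and 0.0511) was left out. C1QC missed it without any single library other than mono-culture library 2 (0.0529 to 0.139), and APOE without any other than mono-culture library 1 or tri-culture library 4 (0.0696 to 0.156). Among the alternative analyses, limma-trend also left C1QC (adjusted p = 0.102) and APOE (0.0974) uncalled, and DESeq2 left APOE uncalled (0.0703).

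TREM2 is shed from the surface by ADAM10 and ADAM17, and its stump is cut by gamma-secretase. Of 11 such genes 10 were tested, 1 was higher, 1 lower and 8 did not pass (median −0.01). ADAM10 fell from 352 ± 17.6 to 248 ± 14.2 CPM (SD, n = 4 each, log2 fold change −0.50, adjusted p = 0.00254), while ADAM17 was at 95.9 and 93.8 CPM (adjusted p = 0.908). MS4A6A, which lies in a gene cluster associated with soluble TREM2, rose from 267 ± 68.4 to 741 ± 142 CPM (1.47, adjusted p = 7.25e-05). MS4A4A, of the same cluster, was at 118 and 88.7 CPM and lower in 4 of 4 batches but did not pass (−0.41, adjusted p = 0.205), except with no filter on low counts (0.0204). The gamma-secretase subunits NCSTN, PSEN2, APH1A, APH1B and PSENEN did not pass.

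Of 6 other ITAM adaptors and receptors 3 were tested and 1 was higher. FCGR2A, an Fc gamma receptor, rose from 114 to 194 CPM (log2 fold change 0.77, adjusted p = 0.00154). FCER1G, the ITAM adaptor of Fc receptors, was at 429 and 334 CPM (−0.36, adjusted p = 0.0583) and passed as lower with batch as a block (adjusted p = 0.0308), without mono-culture library 3 (0.0390) or without tri-culture library 2 (0.0266). CLEC7A, the receptor dectin-1, was at 163 and 209 CPM (0.35, adjusted p = 0.0842) and passed as higher with the block (0.0296) or without mono-culture library 4 (0.0358).

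**Figure D5:**
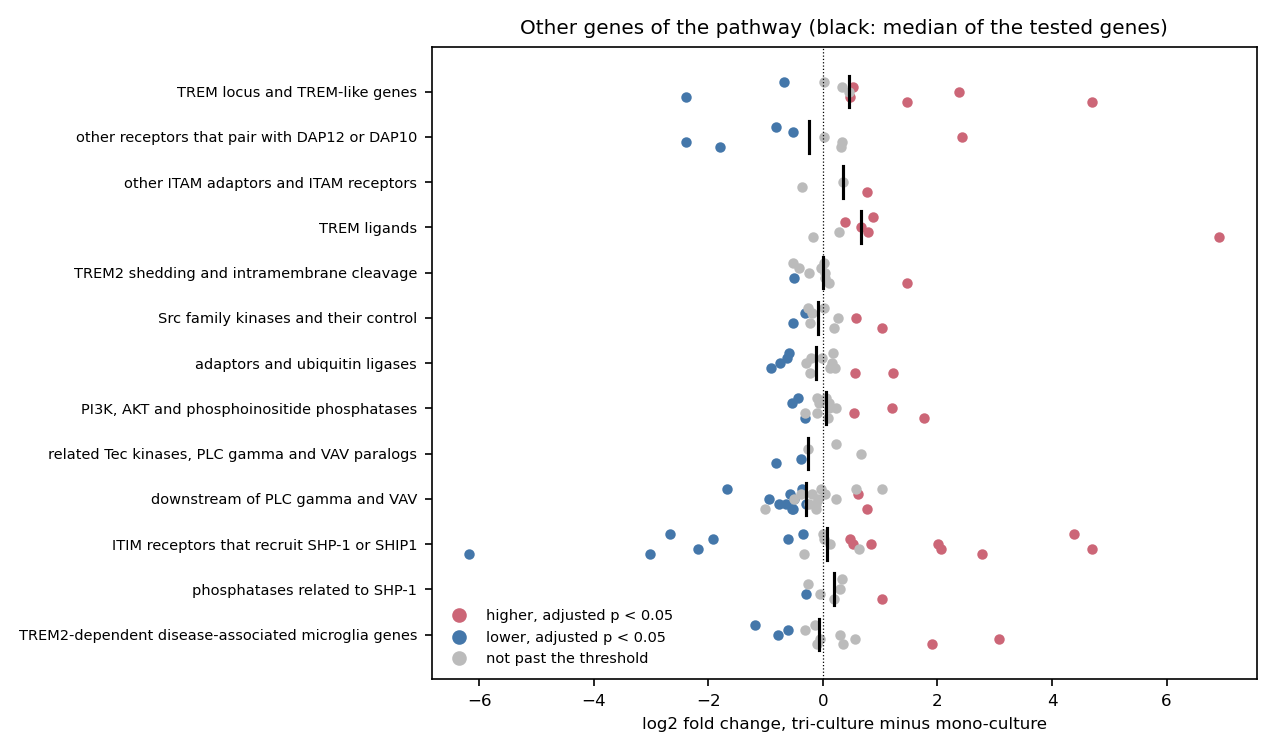
Log2 fold change (tri-culture minus mono-culture, edgeR) of the tested genes of each pathway list, with genes called higher in red, called lower in blue and the rest in grey, and the list median as a bar. The list downstream of PLC gamma and VAV has the lowest median, at −0.30, and the list of TREM ligands the highest, at 0.67.

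Src family kinases and their regulators numbered 10 tested of 12, with 2 higher, 2 lower and 6 not passed (median −0.09). SRC rose from 32.4 ± 4.77 to 66.3 ± 7.98 CPM (SD, n = 4 each, log2 fold change 1.03, adjusted p = 7.48e-05) and YES1 from 18.7 to 27.9 CPM (0.58, adjusted p = 0.00949). PTPRJ, a receptor phosphatase that acts on these kinases, was lower (−0.52, adjusted p = 0.00948), and missed the threshold at 0.0502 when only library size was used for scaling. LYN, a Src kinase of blood cells, fell from 380 to 307 CPM (−0.31, adjusted p = 0.0440), but missed the threshold without any single library (adjusted p = 0.0567 to 0.119) and with batch as a block (0.0535).

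The adaptors downstream of SYK and their ubiquitin ligases numbered 14 tested of 17, with 2 higher, 4 lower and 8 not passed (median −0.11). BLNK, the scaffold that links SYK to BTK and PLC gamma, rose from 68.7 ± 10.0 to 160 ± 19.6 CPM (SD, n = 4 each, log2 fold change 1.22, adjusted p = 1.55e-05). DOK3, an inhibitory adaptor, fell from 45.9 to 24.4 CPM (−0.91, adjusted p = 0.000198). PIK3AP1 and GAB2, which both bind PI3K, fell from 589 to 349 CPM (−0.76, adjusted p = 0.000203) and from 254 to 165 CPM (−0.63, adjusted p = 0.00171). NCK1 was higher (0.55) and DOK2 lower (−0.59). NCK1 missed the threshold without mono-culture library 2 or 4 (0.0551 and 0.0546) and DOK2 without mono-culture library 2 (0.0528).

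In the PI3K and AKT list 15 of 16 genes were tested, with 3 higher, 3 lower and 9 not passed (median 0.05). PIK3R6, a regulatory subunit, rose from 1.31 to 4.47 CPM (log2 fold change 1.77, adjusted p = 0.000587). PDPK1, the kinase that activates AKT, fell from 124 to 85.9 CPM (−0.53, adjusted p = 0.00304). PIK3CG (−0.44) and PIK3CA (−0.30) were lower. PIK3CA missed the threshold if library 1, 3 or 4 of the mono-cultures (adjusted p = 0.0856, 0.119 and 0.1003) or library 2, 3 or 4 of the tri-cultures (0.0811, 0.121 and 0.104) was left out, and with batch as a block (0.0621).

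The paralogs of BTK, PLCG2 and VAV1 numbered 5 tested of 8, with none higher and 2 lower (median −0.25). PLCG1 fell from 34.9 ± 2.56 to 19.9 ± 1.10 CPM (SD, n = 4 each, log2 fold change −0.81, adjusted p = 0.000134), whereas PLCG2 did not pass. The difference between these paralogs was not tested. TEC was lower (−0.38) and missed the threshold if library 1, 2 or 3 of the mono-cultures (adjusted p = 0.0892, 0.0672 and 0.0556) or library 2 or 4 of the tri-cultures (0.0637 and 0.0918) was left out.

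All 25 genes listed downstream of PLC gamma and VAV were tested, and 2 were higher, 10 lower and 13 not passed (median −0.30). The blood-cell Rac GTPase RAC2 fell from 139 ± 16.02 to 81.5 ± 6.35 CPM (SD, n = 4 each, log2 fold change −0.77, adjusted p = 0.000196). PRKCB, a protein kinase C, fell from 98.2 ± 14.1 to 51.2 ± 8.17 CPM (−0.94, adjusted p = 0.000210). The other genes called lower were RASGRP1, PRKCD, ORAI1, BCL10, NFATC1, WIPF1, ITPR2 and PPP3CB. PTK2B, a calcium-responsive kinase, rose from 71.5 ± 4.10 to 121 ± 11.7 CPM (0.76, adjusted p = 0.000126), and MALT1 rose from 53.4 to 81.7 CPM (0.61, adjusted p = 0.00101). With batch as a block NFATC2 (−0.54, adjusted p = 0.0150) and RASGRP3 (−0.40, adjusted p = 0.0316) were also called lower and CARD9 higher (0.99, adjusted p = 0.0272). Scaling by library size only left 6 genes called lower and upper quartile factors 7, and with library size only ITPR2 (adjusted p = 0.117), PPP3CB (0.153), NFATC1 (0.0508) and WIPF1 (0.103) missed the threshold. Of the lower calls, ITPR2 was lost if library 3 or 4 of the mono-cultures (adjusted p = 0.0652 and 0.0994) or library 1 or 2 of the tri-cultures (0.0705 and 0.0749) was left out. WIPF1 was lost if library 4 of the mono-cultures (0.0735) or library 2 or 3 of the tri-cultures (0.0524 and 0.0623) was left out, and PPP3CB if any single library other than mono-culture library 1 or tri-culture library 2 was (0.0568 to 0.0828).

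The inhibitory receptors that recruit PTPN6 or INPP5D through ITIM sequences split in both directions. Of 21 such genes 20 were tested, with 8 higher and 7 lower (median 0.07). LILRB5 fell from 102 ± 5.32 to 1.44 ± 0.642 CPM (SD, n = 4 each, log2 fold change −6.17, adjusted p = 8.82e-09) and LILRB2 from 61.5 ± 2.93 to 16.4 ± 4.05 CPM (−1.91, adjusted p = 3.61e-06). SIGLEC10 rose from 27.4 ± 4.63 to 111 ± 23.8 CPM (2.01, adjusted p = 2.63e-06), in the same direction as CD300LF. The LILR and SIGLEC families hold near-identical paralogs, so the counts of single members are uncertain. In the list of phosphatases related to PTPN6, all 7 were tested, PTPN22 was higher (1.04, adjusted p = 0.00995) and PTPN12 lower (−0.29), and the call of PTPN12 was lost without any single library (adjusted p = 0.0507 to 0.0929) and with batch as a block (0.0534).

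The genes listed for disease-associated microglia did not move together. Of 12 tested, 2 were higher, 3 lower and 7 not passed (median −0.07). AXL, a receptor for dying cells, rose from 88.5 ± 14.1 to 332 ± 68.9 CPM (SD, n = 4 each, log2 fold change 1.91, adjusted p = 3.35e-06), and CST7 rose from 0.249 to 2.17 CPM (3.07, adjusted p = 6.25e-05). The mono-culture mean of CST7 was below the 0.464 CPM used as the filter, so CST7 entered the test through its tri-culture level. CTSB, a lysosomal protease, fell from 5272 to 3059 CPM (−0.79, adjusted p = 0.00420). CD63 and ITGAX were lower (−0.61 and −1.19). CD63 missed the threshold if library 1 or 2 of the mono-cultures (adjusted p = 0.0943 and 0.107) or library 3 or 4 of the tri-cultures (0.0826 and 0.0795) was left out, and ITGAX if any mono-culture library or library 2 of the tri-cultures was (0.0794 to 0.132). LPL, SPP1, GPNMB and CD9, also of this list, did not pass the test, with adjusted p of 0.677, 0.927, 0.858 and 0.323.

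The genes whose pattern over the 8 libraries was most like that of 3 members were ranked by the root mean square difference of mean-centred log2 CPM, among tested genes with a symbol and a mean of at least 5 CPM. For TREM1 they were CX3CR1, JAML and PLD4, at 0.180, 0.192 and 0.210. For TREM2 they were PPP1R9A, SERF1B and SYNGR2, at 0.135, 0.142 and 0.144. SERF1B has a near-identical copy, so its counts are uncertain. For TYROBP they were UXT, RNF181 and TXN2, at 0.0382, 0.0412 and 0.0452. The libraries of one batch are shared by all these genes, and the ranking has no test.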

How the data were processed

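GFP-positive microglia of 8 libraries (4 mono-culture, 4 tri-culture, 1 of each per batch) were compared. Per the submitters' processing notes, the authors aligned reads with HISAT2 2.1.0 and counted them with featureCounts 2.12.3 on GRCh38, and the deposited counts are whole reads per gene. Not given in the sources used here are the annotation release, the strand setting and the handling of reads on overlaps between genes. Another table deposited by the authors holds TPM-like signal values that sum to 0.866 to 1.14 (in units of 1e6) per library, an unstated rescaling, and it was used for levels compared between genes.

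Symbols came from the supplied name table and matched 61458 of 78899 genes. Genes passing edgeR's filterByExpr (minimum count 10, minimum total count 15) numbered 16249. Counts were scaled by TMM and tested with edgeR 4.0.16 (quasi-likelihood, group only, R 4.3.3), with Benjamini-Hochberg adjustment over all tested genes and a threshold of 0.05. Standard errors were derived from the test statistic and a positive log2 fold change means higher in tri-culture. Log2 CPM used a prior count of 2. Ratios were tested by exact permutation of the libraries. A count of 0 over a group allows up to 3 reads (0.0308 CPM for the mono-cultures, 0.0342 CPM for the tri-cultures), for counting error only. On data simulated from these libraries over 16249 genes, the test recovered 7 of 50 genes changed 1.5-fold, 31 of 50 changed 2-fold, 47 of 50 changed 4-fold and 47 of 50 changed 8-fold.

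The labels give both libraries of a batch the same batch number. Deviations of same-batch libraries from their group means correlated at 0.185, 0.126, 0.264 and 0.0796, and batch was fitted as a block in an alternative. Other alternatives used DESeq2 size factors, library size, upper quartile factors, DESeq2 1.42.0, limma-trend 3.58.1, other filters, pairs of batches and each library left out. The named genes were all 10 members, from each list the up to 4 with the lowest adjusted p, any gene needed for a count of 5 or fewer, and the 3 most alike genes of TREM1, TREM2 and TYROBP. Further genes were named after their values were seen, and the values of some listed genes are not reported here. The members, lists and tests were chosen with earlier results of these data known.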

Additional observations from a re-analysis of the deposited data

Results flagged for a closer look

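In 16 of 310 groups of 4 libraries examined, over the 10 genes, the tested genes of the pathway lists and the 5 ratios, 1 library lay far from the other 3, with a gap to the nearest above Dixon's critical value for the share of the range. Chance gives such a gap in about 1 in 20 groups. Among the 10 genes only SYK was affected, at 446 CPM in mono-culture library 1 and 358 to 372 CPM in the other 3. In mono-culture library 1, BLNK was at 83.7 CPM (the others 62.7 to 64.7), CBLB at 62.5 CPM (35.9 to 38.9) and TREML4 at 0.479 CPM (0.111 to 0.120). In mono-culture library 2, CBL was at 222 CPM (289 to 298) and LILRB3 at 4.33 CPM (5.92 to 6.23), and in mono-culture library 4 SIGLEC11 was at 13.7 CPM (8.38 to 8.77). In tri-culture library 1, PRKCB was at 63.4 CPM (46.5 to 47.8), LAT2 at 166 CPM (119 to 127), FCGR2B at 49.1 CPM (14.4 to 19.9) and SIGLEC7 at 17.3 CPM (10.5 to 10.9). In tri-culture library 2, PRKCD was at 186 CPM (239 to 244), SHC1 at 45.8 CPM (51.6 to 52.3), SIGLEC15 at 12.5 CPM (7.48 to 8.04) and SIGLEC5 at 13.2 CPM (36.3 to 39.5). In tri-culture library 3, LILRB1 was at 0.0907 CPM (0.413 to 0.449).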

How the results depend on the processing

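The calls of TREM1, TREM2, HCST and VAV1 held in all 18 alternatives, with log2 fold changes of 2.40 to 2.98, 0.86 to 1.13, −1.99 to −1.47 and −0.52 to −0.35. SYK held in 17 and TYROBP stayed uncalled in 17, with the exceptions given beside those genes. With batch as a block, none of the 10 calls changed: TREM1 was 2.77 (adjusted p = 2.21e-05), TREM2 1.01 (9.31e-06), HCST −1.69 (0.000204), SYK 0.49 (0.00409), VAV1 −0.45 (0.00500) and TYROBP −0.18 (0.372). Changes of call under the block among the listed genes named in the text are given beside them. For the 5 ratios, whose differences kept their direction, sign flips within batches cannot reach a p under 0.125. The sign of 2 uncalled members turned: PTPN6 was −0.0687 in batches 1 and 2 only and −0.0047 without mono-culture replicate 3, and BTK was −0.0112 in batches 3 and 4 only. The count of members called was 3 higher and 2 lower whichever library was left out. Leaving out single libraries gave ranges of 2.61 to 2.91 for TREM1, 0.86 to 1.13 for TREM2, −0.31 to −0.03 for TYROBP, −1.98 to −1.58 for HCST, 0.44 to 0.56 for SYK and −0.52 to −0.38 for VAV1. Scaling by library size only called 2829 genes higher and 1663 lower, and upper quartile factors 2723 and 1773, against 2261 and 2112 with TMM. The median of all tested genes then was 0.12 and 0.10 against 0.02. TREM1 limits precision most, with 48 reads in mono-culture. The p-values measure the spread between 4 batches of 1 line.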

Other observations

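CD68, a lysosomal macrophage marker, averaged 0.618 CPM among the mono-cultures and 0.335 CPM among the tri-cultures, and CDC42, a small GTPase downstream of VAV1, at 3.71 and 5.58 CPM. Both are usually abundant in macrophages, and how the authors treated reads over overlapping genes is not given in the sources used here.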
